A study of Mus musculus with 34 samples.

Results

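Somatostatin (SST) and parvalbumin (PV) interneurons were compared after a saline injection, across all genes of the samples titled batch 2. The comparison rests on 4 SST libraries and 2 PV libraries, 6 of the 34 samples in the series, chosen because their titles carry the words saline and batch 2 and because batch 2 is the one batch that holds both cell types. The SST group came from Sst:Cre/Ribotag mice and the PV group from PV:Cre/Ribotag mice, both of C57/BL6 background, both taken at postnatal day 60 and both given saline, which serves elsewhere in the study as the control for the convulsant PTZ. In these mice Cre recombinase, made from the Sst or the Pvalb gene, switches on an HA tag on the ribosomal protein Rpl22, and polyA RNA is recovered from tagged ribosomes with beads that bind HA. A cell that made Cre at any earlier stage keeps the tag, so the cell types are named here by the Cre line. Tissue is labelled as cortex and hippocampus, but the protocol describes dissection of cortices, and no RNA from before the pull-down entered this comparison. The labels do not say how many animals stand behind a library or whether animals were pooled.

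PV and SST interneurons are the largest inhibitory classes of the cortex that arise in the medial ganglionic eminence, an embryonic zone that also gives them the transcription factor Lhx6. PV basket and chandelier cells fire fast, brief spikes and inhibit the cell body and axon of their targets, and many are wrapped in a perineuronal net, a lattice of proteoglycans and link proteins. SST cells, many of them Martinotti cells, fire with adaptation and inhibit distal dendrites, and they release peptides besides GABA.

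The SST libraries held 13763931 to 18367658 counts and the PV libraries 6161764 and 4933110, so PV values carry more counting error. Across genes, log2 CPM (CPM, counts scaled to a common library total) correlated at r = 0.983 to 0.991 among SST libraries, at 0.934 between the PV libraries and at 0.852 to 0.891 between the cell types. Xist was above the Y-linked Ddx3y in SST replicates 2 and 4 and PV replicate 2 and below it in SST replicates 1 and 3 and PV replicate 1, so both sexes occurred in both groups. Of 11784 genes tested, 6254 (53.1%) differed at an adjusted p under 0.05, with 3065 (26.0%) higher in SST and 3189 (27.1%) higher in PV, and 6923 genes had an unadjusted p under 0.05. Values of the 4 SST and 2 PV libraries did not overlap for 6986 genes (59.3%). Counts for each gene list below are to be read beside the 26.0% and 27.1% over all genes tested. A difference above 8-fold was called for 377 genes higher in SST and 110 higher in PV, although the counts above 2-fold were close, at 1805 and 1928. With the depths above, 3 counts over a group stood for 0.0462 CPM in SST and 0.266 CPM in PV. The part of depth in the 8-fold counts was not tested. In what follows a positive log2 difference means higher in SST, errors are standard errors (SE), and adjusted p-values come from edgeR. No source used here states whether counting kept strands apart, so reads of a gene and of one that overlaps it on the opposite strand cannot be told apart. Among genes described below this touches Gad1, Igf1, Kcnab3 and Kcnd3 with their antisense RNAs, Nefl and Nefm with each other, and Cacna2d3, Cd37, Cd247, Cox4i1, Dusp1, Kcnab2, Nmbr, Rab3a, S100b and Vamp1 with protein-coding neighbours, and many others with unnamed non-coding models. On the same strand Grin3a contains Ppp3r2 and Timp2 contains Cep295nl. With pulled-down bulk RNA, a lower level cannot be told apart from fewer cells that make the RNA.

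The genes that name the cell types separated the libraries as labelled. Pvalb, a fast calcium buffer, was at 362 and 243 CPM in the PV libraries and at 12.0, 6.46, 6.22 and 6.71 CPM in the SST libraries, 38.4-fold lower in SST (log2 -5.26 ± 0.26, adjusted p = 5.29e-08, edgeR). Sst, the peptide precursor, was at 3398, 1746, 2601 and 2534 CPM in the SST libraries and at 68.0 and 54.3 CPM in the PV libraries, 41.9-fold higher in SST (log2 5.39 ± 0.27, adjusted p = 5.66e-08, edgeR). Neither gene overlapped between groups, and neither was at 0 in the other cell type. Syt2, the fast calcium sensor of PV terminals, was at 570 and 626 CPM in PV and between 25.3 and 32.4 CPM in SST (log2 -4.36 ± 0.15, adjusted p = 7.92e-09, edgeR). Lhx6, shared by both classes, was at 497, 447, 530 and 509 CPM in SST and at 223 and 314 CPM in PV (log2 0.89 ± 0.14, adjusted p = 0.000304, edgeR). Rpl22, which carries the tag, was at 38 and 22.9 CPM in PV and between 11.9 and 14.6 CPM in SST (log2 -1.24 ± 0.23, adjusted p = 0.000746, edgeR).

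The promoters of the 2 defining genes are shown because the cyclic AMP response element (CRE) of Sst is among the best known sites of a neuropeptide promoter. Each is the 250 bases before a RefSeq start (for Pvalb, 1 of its 2 listed starts), 5′ to 3′ on the gene's strand in GRCm38.p6, with the CRE (TGACGTCA, its own reverse complement) in capitals. Sst lies on the minus strand with its window at chr16:23890845-23891094, and Pvalb on the minus strand at chr15:78206401-78206650.
Sst: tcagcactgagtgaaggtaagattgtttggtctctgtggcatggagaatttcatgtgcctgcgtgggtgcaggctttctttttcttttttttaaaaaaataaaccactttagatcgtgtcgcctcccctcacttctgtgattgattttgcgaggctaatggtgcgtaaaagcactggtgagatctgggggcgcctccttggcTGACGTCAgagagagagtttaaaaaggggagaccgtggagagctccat
Pvalb: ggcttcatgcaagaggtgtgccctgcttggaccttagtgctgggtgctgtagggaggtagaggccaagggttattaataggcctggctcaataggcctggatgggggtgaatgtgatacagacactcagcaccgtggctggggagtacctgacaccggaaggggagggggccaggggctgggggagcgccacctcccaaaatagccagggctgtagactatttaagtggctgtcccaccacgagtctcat
The CRE of Sst begins 48 bases before the start, and the Pvalb window holds no copy of these letters. Among genes with a promoter sequence, a CRE was present in 1.77% of all genes, 3.29% of genes tested, 2.99% of genes higher in SST and 3.93% of genes higher in PV. A match describes the letters and is not evidence of a working site.

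Among 37 tested markers of SST interneurons, 33 were higher in SST and 0 in PV, with a median log2 difference of 3.32 against 0.01 over all genes tested. The list was drawn up with earlier results of these data known, so its direction is a check of the labels. Pdyn, the precursor of dynorphin peptides, was at 435, 344, 416 and 344 CPM in SST and at 1.36 and 0.214 CPM in PV (log2 8.76 ± 0.34, adjusted p = 1.12e-08, edgeR). Synpr, a synaptic vesicle membrane protein, was at 437, 461, 339 and 479 CPM in SST and at 2.57 and 1.28 CPM in PV (log2 7.73 ± 0.27, adjusted p = 7.92e-09, edgeR). Reln, a secreted glycoprotein that guides neuronal layering, was at 1355, 1213, 1472 and 1087 CPM against 72.9 and 103 CPM (log2 3.87 ± 0.19, adjusted p = 3.68e-08, edgeR). All 3 were present in every SST library at levels far above either PV library. Markers of SST subtypes were also found: Chodl, a mark of long-range SST cells, was at 11.2, 12.9, 11.2 and 16.1 CPM in SST and had 1 count in the PV libraries together, a ratio of 147 with a 95% counting interval of 26.4 to 5823. Nos1, which makes nitric oxide and is strong in the same subtype, was at 330, 474, 471 and 468 CPM in SST and 50.5 and 36.6 CPM in PV. Chrna2, a nicotinic receptor subunit of deep-layer Martinotti cells, gave a ratio of 125 (22.4 to 4951), again over 1 PV count. Hpse, which cuts heparan sulphate, was at 22.1, 23.9, 26.1 and 21.6 CPM in SST and at 0 counts in PV, at least 87.4-fold higher when a floor of 3 counts over both PV libraries is used. Without PV replicate 1 the log2 values were 10.75 for Pdyn, 8.37 for Synpr, 5.85 for Chodl and 5.64 for Chrna2, and without PV replicate 2 they were 8.14 for Pdyn, 10.65 for Chodl and 10.44 for Chrna2.

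Among 32 tested PV markers, 23 were higher in PV and 4 in SST, with a median of -1.50. Cox6a2, a heart and muscle form of a cytochrome oxidase subunit, was at 97.4 and 116 CPM in PV and at 1.63, 0.559, 0.666 and 0.745 CPM in SST (log2 -6.87 ± 0.32, adjusted p = 2.88e-08, edgeR). It overlaps Itgad on the opposite strand, so its reads are uncertain to that extent. Pthlh, a parathyroid hormone-like peptide found in PV basket cells, was at 19.1 and 37.0 CPM in PV and 1.27, 0.869, 0.740 and 0.373 CPM in SST (log2 -5.10 ± 0.47, adjusted p = 5.01e-06, edgeR). Mybpc1, a myosin-binding protein seen in a PV subtype, was at 48.8 and 47.7 CPM in PV and 3.81, 2.79, 2.59 and 2.13 CPM in SST (log2 -4.09 ± 0.33, adjusted p = 1.73e-06, edgeR). These 3 did not overlap between groups. For Cox6a2 and Pthlh this was also a condition of being named among the largest differences. The members higher in SST were Cpne5 (log2 3.79), Gabrg1 (2.74), Th (2.13) and Osbpl3 (0.54), so the PV list did not move as a block. The call of Osbpl3 was lost without any one of SST replicates 2, 3 or 4 or PV replicate 2 (adjusted p = 0.0515 to 0.124). Tac1, the precursor of substance P, was at 115 and 75.9 CPM in PV and between 8.06 and 14.9 CPM in SST (log2 -3.09 ± 0.24, adjusted p = 1.31e-06, edgeR).

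**Figure D1:**
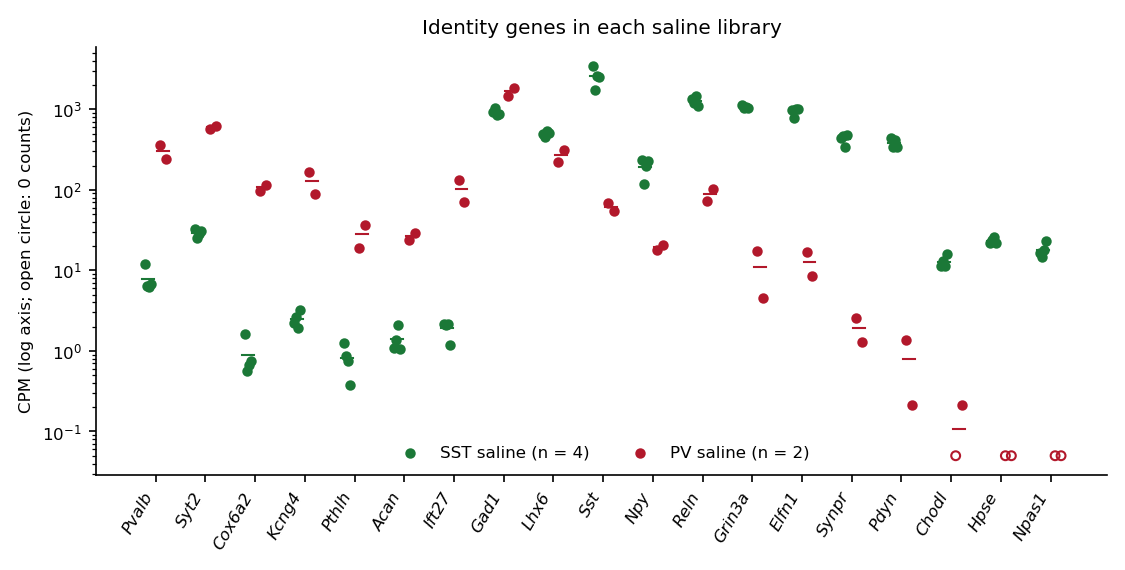
Level of 19 identity genes in each saline library, in CPM on a log axis, with SST libraries in green, PV libraries in red, short bars for group means and open circles for 0 counts. For Pvalb the PV libraries sit at 362 and 243 CPM above 6.22 to 12.0 CPM in SST, for Sst the SST libraries sit at 1746 to 3398 CPM above 54.3 and 68.0 CPM in PV, and Gad1 is present in both.

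Ranked by fitted log2 value, the largest differences included members of the SST marker list, such as Hpse and Nmbr, and genes outside it. In the SST direction the 12 largest fitted differences, at a mean of 5 CPM or more and without overlap, were those of the following genes. They were Hpse, the transcription factor Npas1 (14.7 to 22.9 CPM, at least 68.4-fold), the processed pseudogene Gm12669 (at least 50.0-fold) and the bombesin receptor Nmbr (at least 41.8-fold). The growth factor Gdf10 (at least 39.0-fold), the kinase gene Alpk2 (at least 38.4-fold), the pacemaker channel Hcn4 (at least 36.6-fold) and the peptidase Ecel1 (at least 34.9-fold) were among them. The others were the small GTPase Rasl11a (at least 32.5-fold), the dopamine receptor Drd2 (at least 30.4-fold), Dlk1 (at least 27.1-fold) and the zinc finger gene Zfp92 (at least 24.2-fold). All 12 were at 0 counts in both PV libraries, so their rank rests on fitted values that the counts do not fix. Pdyn and Synpr, which had counts in both PV libraries, differed 434-fold and 212-fold, above each of these bounds. Among all genes tested, 102 were at 0 counts in both PV libraries, 95 of them called, and 0 genes were at 0 in all SST libraries. The SST libraries were deeper and more numerous, which makes 0 counts less likely there. The part of depth in these counts was not tested. A pseudogene can draw reads from its parent gene, so the value for Gm12669 is uncertain.

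In the PV direction the largest differences included several genes best known from striated muscle. Tcap, a titin-capping protein, was at 32.1 and 16.5 CPM in PV and at 0.907, 0.497, 0 and 0.160 CPM in SST (log2 -5.91 ± 0.65, adjusted p = 1.81e-05, edgeR). Asb2, a ubiquitin ligase subunit of muscle and blood cells, was at 4.84 and 29.9 CPM in PV and at most 0.370 CPM in SST (log2 -6.06). Pdlim3, a Z-disc protein, was at 18.1 and 3.85 CPM in PV and at most 0.302 CPM in SST (log2 -5.55). Both PV libraries were above every SST library for these genes, as the rule for naming the largest differences required. The PV libraries differed from each other by several fold for Asb2 and Pdlim3. Without PV replicate 2 the log2 value of Asb2 was -4.23, and without PV replicate 1 that of Pdlim3 was -4.02; without SST replicate 1 that of Tcap was -6.70. Steadier between the PV libraries than Asb2 and Pdlim3 were Ift27 and Tusc5. Ift27, an intraflagellar transport protein, was at 133 and 71.0 CPM against 1.17 to 2.18 CPM (log2 -5.75 ± 0.30, adjusted p = 8.39e-08, edgeR). It lies at chr15:78159463-78174107, near Pvalb at chr15:78191114-78206400, from which Cre is made in the PV line. The part of this position in the difference was not tested. Tusc5, which takes part in glucose transporter traffic in fat, was at 20.6 and 16.9 CPM against 0.0621 to 0.222 CPM (log2 -6.85 ± 0.43, adjusted p = 3.19e-07, edgeR). Sh3bgr, another muscle gene, was at 7.56 and 3.85 CPM against at most 0.121 CPM (log2 -5.84). Cd247, the zeta chain of the T cell receptor, was at 1.81 and 8.77 CPM in PV and had 1 count in the SST libraries together, a ratio of 305 (95% counting interval 52.4 to 12266), and its fitted log2 value ran from -9.23 without SST replicate 3 to -6.27 without PV replicate 2. Cd37, a tetraspanin of B cells, was at 1.06 and 13.7 CPM in PV and at most 0.296 CPM in SST, with log2 -5.59 that became -2.84 without PV replicate 2 and -6.54 without PV replicate 1.

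Of 21 genes of GABA synthesis and transport and of the medial ganglionic eminence, 6 (28.6%) were higher in SST and 5 (23.8%) in PV, near the 26.0% and 27.1% over all genes tested. Gad1, the enzyme that makes most GABA, was at 1481 and 1843 CPM in PV and at 929, 1047, 847 and 869 CPM in SST (log2 -0.85 ± 0.12, adjusted p = 0.000155, edgeR). Gad2, the form found at terminals, went the other way, at 3729, 3662, 3666 and 3842 CPM in SST and 1083 and 1308 CPM in PV (log2 1.64 ± 0.14, adjusted p = 2.36e-06, edgeR). The vesicular GABA transporter Slc32a1 (491 and 525 CPM in PV, 214 to 251 CPM in SST, log2 -1.13) was higher in PV. So was Erbb4, a neuregulin receptor of interneurons, at 1721 and 1800 CPM against 561, 511, 417 and 542 CPM (log2 -1.79 ± 0.12, adjusted p = 4.63e-07, edgeR).

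Peptide genes differed in both directions. Of 20 neuropeptide and hormone genes, 9 (45%) were higher in SST, 5 (25%) were higher in PV and 6 were not called. The shares over all genes tested were 26.0% and 27.1%, and the median over the list was 0.56. Besides Sst and Pdyn, Npy was at 237, 119, 196 and 225 CPM in SST and 18 and 20.5 CPM in PV (log2 3.34 ± 0.27, adjusted p = 1.96e-06, edgeR). Penk, the enkephalin precursor, was at 27.8 to 44.9 CPM in SST and 8.17 and 14.8 CPM in PV (log2 1.73 ± 0.28, adjusted p = 0.00032, edgeR). Igf1, a growth factor, was at 247, 194, 174 and 209 CPM in SST and 5.44 and 15.2 CPM in PV (log2 4.38, or 3.75 without PV replicate 1 and 5.25 without PV replicate 2). Higher in PV, next to Pthlh and Tac1, was Cck, at 140 and 201 CPM in PV and 23.5, 22.2, 25.7 and 39.2 CPM in SST (log2 -2.62 ± 0.22, adjusted p = 2.5e-06, edgeR). Adm (log2 -4.37) and Cartpt (log2 -2.62) were also higher in PV. Processing enzymes and granins were split as well, with 6 (40%) of 15 higher in SST and 5 (33.3%) in PV. The convertase Pcsk1 was at 13.5 to 15.7 CPM in SST and 3.63 and 5.77 CPM in PV (log2 1.63). Chga, a granin that packs peptides into dense-core vesicles, was at 166 and 154 CPM in PV and 65.1 to 83.4 CPM in SST (log2 -1.17).

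Potassium channel genes differed in both directions. Kv3 channels close fast and let PV cells repolarise between spikes, and Kv1 channels set spike threshold. Of 14 tested Kv1, Kv3 and beta subunit genes, 6 (42.9%) were higher in PV and 5 (35.7%) in SST. The shares over all genes tested were 27.1% and 26.0%. Kcnc1 (Kv3.1) was at 1219 and 1426 CPM in PV and at 511, 476, 564 and 542 CPM in SST (log2 -1.34 ± 0.11, adjusted p = 2.52e-06, edgeR). Kcnc2 (Kv3.2), which both classes use, was at 828.8 and 895 CPM in PV and 596 to 792 CPM in SST, and its log2 difference of -0.35 (adjusted p = 0.0292, edgeR) lost its call without any one of SST replicates 2, 3 or 4 or PV replicate 2 (adjusted p = 0.0511 to 0.107). The groups overlapped for neither of these 2 genes. Kcnc4 (Kv3.4) went the other way, at 32.1, 29.2, 40.0 and 43.3 CPM in SST and 6.50 and 0.214 CPM in PV (log2 3.29, or 7.34 without PV replicate 1 and 2.48 without PV replicate 2). Kcna1 (Kv1.1) was at 1246 and 1267 CPM in PV and 501 to 646 CPM in SST (log2 -1.09 ± 0.12, adjusted p = 1.43e-05, edgeR). Kcna2 (Kv1.2) was at 1737 and 1739 CPM in PV and 1578 to 1652 CPM in SST and did not pass the test (log2 -0.10 ± 0.10, adjusted p = 0.422, edgeR). With an offset for exon length and GC share, described with exon length below, Kcna2 was called higher in PV (log2 -0.59, adjusted p = 0.0006, edgeR). The beta subunits Kcnab3 (log2 -2.79) and Kcnab2 (-1.62) were higher in PV.

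Among 45 other potassium and HCN channel genes, 15 (33.3%) were higher in SST and 17 (37.8%) in PV. Kcng4, a silent subunit that joins Kv2 channels, was at 167 and 89.4 CPM in PV and at 2.24, 2.61, 1.92 and 3.25 CPM in SST (log2 -5.66 ± 0.26, adjusted p = 2.88e-08, edgeR). Kcnip2, a partner of Kv4 channels, was at 311 and 285 CPM in PV and 26.6 to 36.5 CPM in SST (log2 -3.25 ± 0.13, adjusted p = 1.66e-08, edgeR). The Kv4 channel Kcnd3 was at 283, 246, 230 and 265 CPM in SST and 31.9 and 17.1 CPM in PV (log2 3.36 ± 0.23, adjusted p = 5.47e-07, edgeR). The channel and its partner therefore differed in opposite directions. HCN channels carry the pacemaker current, and Hcn4 was at 10.0, 9.87, 8.51 and 10.2 CPM in SST and at 0 counts in PV.

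Of 15 sodium channel genes, 7 (46.7%) were higher in SST and 6 (40%) in PV, and beta subunits differed in both directions. Scn4b, which lets channels reopen between spikes, was at 94.2 and 86.4 CPM in PV and at 5.62, 7.45, 9.40 and 8.30 CPM in SST (log2 -3.55 ± 0.20, adjusted p = 1.28e-07, edgeR). Scn3b was at 241, 188, 210 and 238 CPM in SST and 15.7 and 16.2 CPM in PV (log2 3.78 ± 0.16, adjusted p = 1.88e-08, edgeR). The pore subunits of mature axons, Scn1a (log2 -0.58 ± 0.11, adjusted p = 0.000669, edgeR) and Scn8a (log2 -1.02 ± 0.20, adjusted p = 0.00134, edgeR), were higher in PV, and Scn3a, best known from immature neurons, was at 37.6 to 58.9 CPM in SST and 6.20 and 9.84 CPM in PV (log2 2.67 ± 0.28, adjusted p = 1.15e-05, edgeR).

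Calcium channel genes leaned to SST, with 13 (61.9%) of 21 higher in SST and 1 (4.8%) in PV and a median log2 difference of 0.96. These are long transcripts, with a median exon length of 8963 bases. Among all genes of 6001 to 9000 bases the median log2 difference was 0.21, with 32.7% higher in SST. Among those over 9000 bases it was 0.44, with 46.2% higher in SST. Cacna1e (R-type) was at 413, 647, 687 and 516 CPM in SST and 72.1 and 60.9 CPM in PV (log2 3.08 ± 0.24, adjusted p = 1.53e-06, edgeR). Cacna1g (T-type), a source of burst firing, was at 57.0 to 81.8 CPM in SST and 16.2 and 16.9 CPM in PV (log2 2.00 ± 0.19, adjusted p = 7.63e-06, edgeR). The auxiliary subunits divided by gene: Cacna2d3 was at 143 to 179 CPM in SST and 16 and 24.2 CPM in PV (log2 2.99), and Cacna2d2 was at 410 and 569 CPM in PV and 293 to 365 CPM in SST (log2 -0.61 ± 0.14, adjusted p = 0.00343, edgeR). Cacna2d2 was the member called higher in PV; without PV replicate 1 the count was 2.

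**Figure D2:**
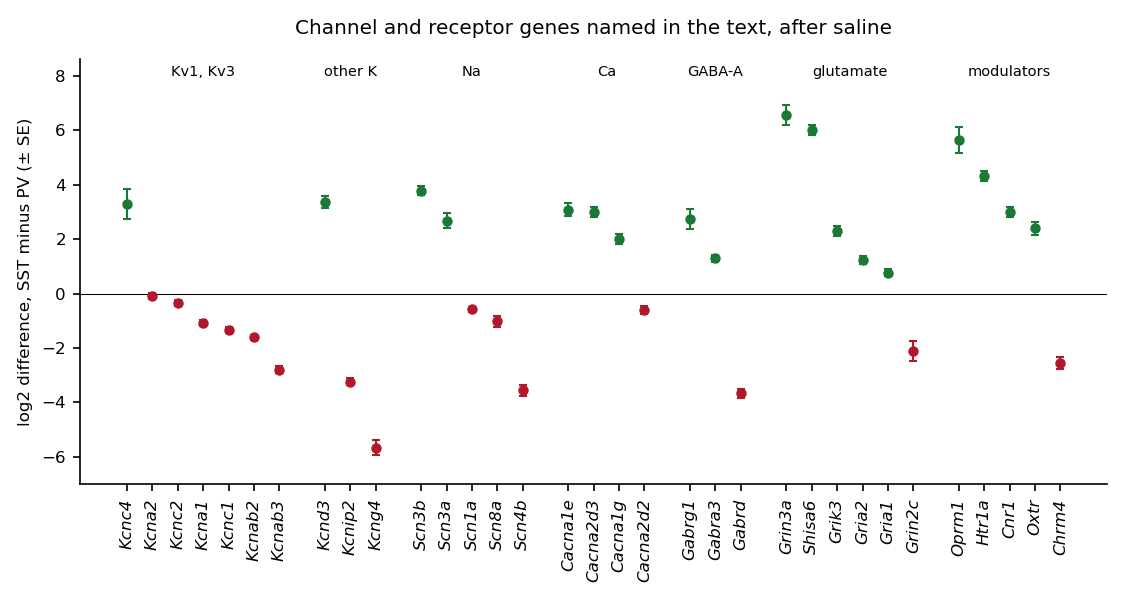
Log2 difference after saline, SST minus PV, for channel and receptor genes named in the text, with bars of 1 standard error from the fit. Green points lie above 0 (SST level above PV) and red points below 0: Kcng4 lies at -5.66 and Grin3a at 6.55, while Kcna2, which did not pass the test, lies at -0.10.

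Glutamate receptor genes leaned to SST. Of 26 ionotropic subunits and auxiliary proteins, 18 (69.2%) were higher in SST and 3 (11.5%) in PV, with a median of 0.90. Grin3a, an NMDA subunit that lowers calcium entry, was at 1134, 1041, 1079 and 1051 CPM in SST and 17.4 and 4.49 CPM in PV (log2 6.55, or 7.89 without PV replicate 1 and 5.96 without PV replicate 2). Shisa6, a partner of AMPA receptors, was at 492, 454, 508 and 466 CPM in SST and 6.50 and 8.55 CPM in PV (log2 6.01 ± 0.20, adjusted p = 7.92e-09, edgeR). The kainate subunit Grik3 was at 761 to 903 CPM in SST and 207 and 137 CPM in PV (log2 2.29 ± 0.17, adjusted p = 1.09e-06, edgeR). Gria2, the subunit that blocks calcium entry through AMPA receptors, was at 595, 838, 747 and 730 CPM in SST and 279 and 345 CPM in PV (log2 1.22 ± 0.15, adjusted p = 3.33e-05, edgeR), and Gria1 differed less (log2 0.77 ± 0.13, adjusted p = 0.000399, edgeR). For the NMDA subunit Grin2c, at 5.44 and 8.12 CPM in PV and 1.24 to 1.85 CPM in SST, the difference was -2.12.

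Of 49 metabotropic and neuromodulator receptors, 23 (46.9%) were higher in SST and 9 (18.4%) in PV. The serotonin receptor Htr1a was at 93.9, 99.3, 103 and 112 CPM in SST and 4.69 and 5.77 CPM in PV (log2 4.30 ± 0.19, adjusted p = 1.82e-08, edgeR). The cannabinoid receptor Cnr1 (373 to 460 CPM in SST, 61.4 and 40.6 CPM in PV, log2 3.00) and the oxytocin receptor Oxtr (45.3 to 63.4 CPM in SST, 7.86 and 12.6 CPM in PV, log2 2.39) were higher in SST too. The mu opioid receptor Oprm1, which overlaps Ipcef1 on the opposite strand, was at 27.3 to 32.6 CPM in SST and 1.06 and 0 CPM in PV (log2 5.65, or 11.89 without PV replicate 1 and 4.87 without PV replicate 2). In the other direction the muscarinic receptor Chrm4 was at 25.3 and 31.6 CPM in PV and 3.91 to 5.62 CPM in SST (log2 -2.55 ± 0.23, adjusted p = 3.82e-06, edgeR), and Drd1 (log2 -1.35) was higher in PV where Drd2 was higher in SST.

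GABA receptor subunits were divided between the cell types: 7 (46.7%) of 15 were higher in SST and 5 (33.3%) in PV, with a median of -0.01. Gabrd, the delta subunit of receptors outside the synapse, was at 258 and 215 CPM in PV and at 15.8, 20.1, 19.1 and 19.5 CPM in SST (log2 -3.67 ± 0.15, adjusted p = 1.72e-08, edgeR). The alpha subunit gene Gabra3 was at 143, 142, 138 and 141 CPM in SST and 55.5 and 60.1 CPM in PV (log2 1.29 ± 0.12, adjusted p = 4.02e-06, edgeR). The theta subunit Gabrq was at 2.59 to 6.23 CPM in SST and at 0 counts in PV, at least 15.2-fold higher. The count of subunits higher in PV was 3 without PV replicate 2.

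At the terminal, 20 (40%) of 50 release genes were higher in SST and 9 (18%) in PV, a PV count that rose without PV replicate 1. The complexin and synaptotagmin genes described here differed in opposite directions. Complexins clamp and trigger vesicle fusion. Cplx1 was at 3785 and 4491 CPM in PV and 1254, 963, 1007 and 1102 CPM in SST (log2 -1.94 ± 0.13, adjusted p = 3.81e-07, edgeR). Cplx2 was at 1342, 1662, 1820 and 1537 CPM in SST and 363 and 504 CPM in PV (log2 1.88 ± 0.18, adjusted p = 8.14e-06, edgeR). Among synaptotagmins Syt2 was higher in PV and Syt1 was at 4726, 5027, 4737 and 4687 CPM in SST and 1939 and 2090 CPM in PV (log2 1.25 ± 0.09, adjusted p = 1.23e-06, edgeR). Vamp1, a vesicle SNARE, was at 1108 and 1105 CPM in PV and 225 to 268 CPM in SST (log2 -2.13 ± 0.10, adjusted p = 3.08e-08, edgeR). Vamp2, the form used by most synapses, was at 1179 and 1440 CPM in PV and 960 to 1311 CPM in SST and did not pass (log2 -0.21 ± 0.14, adjusted p = 0.228, edgeR). Among the Rab3 proteins that tether vesicles, Rab3b was at 974 to 1234 CPM in SST and 156 and 153 CPM in PV (log2 2.84) and Rab3a was higher in PV (log2 -0.85). Syt2 overlaps Ppp1r12b, so its reads are uncertain to that extent.

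Synapse organizers were also divided, with 19 (43.2%) of 44 higher in SST and 17 (38.6%) in PV, a PV count that fell without PV replicate 2. Elfn1, which makes the excitatory synapses onto SST cells facilitate, was at 990, 772, 1013 and 998 CPM in SST and 16.8 and 8.55 CPM in PV (log2 6.18, or 6.77 without PV replicate 1). Cbln4, which links SST terminals to dendrites, was at 73.2 to 89.2 CPM in SST and 2.57 and 0.855 CPM in PV (log2 5.49, or 6.58 without PV replicate 1). Nrxn3, a presynaptic adhesion molecule, was higher in SST (log2 1.28 ± 0.14, adjusted p = 1.7e-05, edgeR). In PV, Igsf11 was at 112 and 117 CPM against 21.0 to 24.3 CPM (log2 -2.37 ± 0.15, adjusted p = 3.81e-07, edgeR), Lgi2, a secreted protein of inhibitory synapses, was at 662 and 587 CPM against 148 to 210 CPM (log2 -1.82), and Cntnap4 was at 119 and 139 CPM against 51.8 to 57.0 CPM (log2 -1.22).

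Of 19 perineuronal net genes, 7 (36.8%) were higher in PV and 5 (26.3%) in SST, against 27.1% and 26.0% over all genes tested. Acan, the aggrecan core that defines the net, was at 23.9 and 29.5 CPM in PV and at 1.09, 1.37, 2.07 and 1.06 CPM in SST (log2 -4.26 ± 0.44, adjusted p = 1.24e-05, edgeR). The link proteins Hapln4 (847 and 989 CPM in PV, 150 to 208 CPM in SST, log2 -2.35) and Hapln1 (87.1 and 137 CPM in PV, 13.2 to 23.6 CPM in SST, log2 -2.59) followed it. The proteases Adamts15 (42.8 and 81.5 CPM in PV, 1.54 to 2.74 CPM in SST, log2 -4.93 ± 0.30, adjusted p = 2.32e-07, edgeR) and Adamts8 (log2 -3.78), which cut proteoglycans, were higher in PV as well. The members higher in SST included protease inhibitors: Timp2 was at 789, 599, 670 and 707 CPM in SST and 147 and 126 CPM in PV (log2 2.34 ± 0.15, adjusted p = 3.19e-07, edgeR), and Timp3, which lies within Syn3 on the opposite strand, differed by 3.08. Tnr, the tenascin that cross-links the net, did not pass the test (log2 -0.12 ± 0.15, adjusted p = 0.52, edgeR) but was called higher in PV with the exon length and GC offset (log2 -0.59, adjusted p = 0.000589, edgeR).

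Of 27 neurofilament and axonal cytoskeleton genes, 12 (44.4%) were higher in PV and 2 (7.4%) in SST. The SST count was 4 without PV replicate 2, 1 without SST replicate 2 or PV replicate 1 and 0 with the offset. Nefh, the heavy neurofilament of thick axons, was at 689 and 1045 CPM in PV and 88.7 to 105 CPM in SST (log2 -3.16 ± 0.15, adjusted p = 2.88e-08, edgeR). Nefm (log2 -2.60) and Nefl (-1.94) were also higher in PV. Of 28 calcium buffers and related genes, 8 (28.6%) were higher in SST and 10 (35.7%) in PV, so the list went both ways. Next to Pvalb in PV stood Calb1 in SST, the buffer calbindin, at 341, 346, 263 and 309 CPM in SST and 25.6 and 29.9 CPM in PV (log2 3.51 ± 0.16, adjusted p = 2.84e-08, edgeR).

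Of 42 transcription factors of interneurons, 13 (31.0%) were higher in SST and 9 (21.4%) in PV (14 in PV without PV replicate 1). These shares were near those over all genes tested. Satb1, which matures SST cells, was at 1481 to 1610 CPM in SST and 679 and 854 CPM in PV (log2 1.02 ± 0.11, adjusted p = 2.13e-05, edgeR), a call lost with the exon length and GC offset (log2 0.36, adjusted p = 0.0573, edgeR). Tox was at 158 to 193 CPM in SST and 13.9 and 21.2 CPM in PV (log2 3.33 ± 0.20, adjusted p = 1.99e-07, edgeR). Mef2c, needed for PV cell development, was at 1151 and 1288 CPM in PV and 781 to 858 CPM in SST (log2 -0.57 ± 0.09, adjusted p = 0.000375, edgeR), and Rora was higher in PV by a wider margin (log2 -1.20).

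Among regulators of mitochondrial genes, the estrogen-related receptors (ERR) and their coactivator PGC-1 alpha were higher in PV. Of 10 such genes, 6 (60%) were higher in PV and 2 (20%) in SST. Esrra was at 33.9 and 35.9 CPM in PV and at 4.29, 3.41, 4.00 and 2.98 CPM in SST (log2 -3.25 ± 0.22, adjusted p = 4.95e-07, edgeR). It overlaps Trmt112, so its reads are uncertain to that extent. Esrrb was at 14.5 and 26.3 CPM in PV and 1.44 to 2.92 CPM in SST (log2 -3.41 ± 0.37, adjusted p = 1.59e-05, edgeR), and Esrrg was at 476 and 696 CPM in PV and 132, 119, 101 and 106 CPM in SST (log2 -2.35 ± 0.17, adjusted p = 7.34e-07, edgeR). All 3 receptors kept the PV libraries above every SST library. Ppargc1a, which encodes PGC-1 alpha, was at 864 and 1783 CPM in PV and 569, 445, 421 and 434 CPM in SST (log2 -1.50 ± 0.22, or -0.88 without PV replicate 2). The members higher in SST were Pprc1 (log2 0.85) and Gabpa (0.62); that count was 0 without any one of SST replicates 2, 3 or 4 and 1 without either PV library.

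Nuclear genes for oxidative phosphorylation, the respiratory complexes and ATP synthase, were nearly all higher in PV. Of 75 tested, 73 (97.3%) were higher in PV and 1 (1.3%) in SST, against 27.1% and 26.0% over all genes tested. The median log2 difference was -2.24, and summed over the list the level was 12915 to 13413 CPM in PV and 5316 to 6303 CPM in SST. Shares for genes of like exon length are given with exon length below. Cox4i1, a core part of cytochrome oxidase, was at 517 and 291 CPM in PV and at 63.8, 39.5, 35.7 and 49.8 CPM in SST (log2 -3.10 ± 0.24, adjusted p = 1.35e-06, edgeR). The complex I subunit Ndufb7 was at 65.3 and 56.0 CPM in PV and 3.26 to 8.77 CPM in SST (log2 -3.49 ± 0.32, adjusted p = 4.45e-06, edgeR). Uqcr11 of complex III was at 72.6 and 42.1 CPM in PV and 1.92 to 5.38 CPM in SST (log2 -4.02 ± 0.35, adjusted p = 3.12e-06, edgeR). Only Atp5b and Ndufs5 stood outside. Atp5b, the catalytic subunit of ATP synthase, was at 2627, 2630, 2596 and 2907 CPM in SST and 1954 and 2403 CPM in PV (log2 0.30, adjusted p = 0.0413, edgeR), a call lost when any one of SST replicates 1 to 4 or PV replicate 1 was left out (adjusted p = 0.0538 to 0.298). Ndufs5 was at 28 and 3.21 CPM in PV and 6.77, 11.9, 6.29 and 14.9 CPM in SST and did not pass (log2 -0.67 ± 0.57, adjusted p = 0.342, edgeR), with a log2 value of 1.63 without PV replicate 1 and -1.47 without PV replicate 2.

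Ribosomal protein genes moved the same way. Of 73, 68 (93.2%) were higher in PV and 1 (1.4%) in SST, with a median of -1.60. The summed level was 5306 to 5712 CPM in PV and 2100 to 2822 CPM in SST. Rpl38 was at 51.1 and 62.9 CPM in PV and at 6.95, 4.16, 4.22 and 5.80 CPM in SST (log2 -3.42 ± 0.25, adjusted p = 8.78e-07, edgeR), and Rps20 was at 32.1 and 33.6 CPM in PV and 3.48 to 4.10 CPM in SST (log2 -3.08 ± 0.20, adjusted p = 4.22e-07, edgeR). Rpl10 was the exception, at 119, 88.8, 107 and 115 CPM in SST and 63.8 and 65.2 CPM in PV (log2 0.74 ± 0.15, adjusted p = 0.00173, edgeR). Many ribosomal protein genes have processed pseudogenes that can share their reads, so single members are uncertain.

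Exon length moved with these differences. Genes of up to 1000 bases had a median log2 difference of -1.67, those of 1001 to 2000 bases -0.94, those of 4001 to 6000 bases 0.01 and those over 9000 bases 0.44, and across 11366 genes with a length the rank correlation was 0.324, given as a description since all points share the same libraries. The median exon length was 1696.5 bases for the oxidative phosphorylation list and 1830 bases for the ribosomal list, against 4923 over all genes. Of all genes of 1001 to 2000 bases, 55.0% were called higher in PV and 9.8% higher in SST. For genes of up to 1000 bases these shares were 68.7% and 4.7%. With an offset fitted for exon length and GC share, 68 oxidative phosphorylation genes were higher in PV with a median of -1.47, and 55 ribosomal protein genes with a median of -1.05. The offset moved the size of many single differences by more than 1.5 times. Those called higher in PV became smaller for Pvalb (log2 -4.23), Cox6a2 (-5.43), Tcap (-4.53), Sh3bgr (-5.12), Pthlh (-4.41), Cck (-1.63), Cartpt (-1.65), Adm (-3.70), Chrm4 (-1.63), S100b (-1.08), Ldhb (-1.80), Cox4i1 (-2.20), Uqcr11 (-2.37) and Rpl38 (-1.69). They became larger for Erbb4 (-2.42), Mef2c (-1.28) and Rora (-1.85). Those called higher in SST became smaller for Synpr (7.12), Scn3a (2.07), Cacna1e (2.37), Igf1 (3.79), Gabrg1 (2.10) and Gria2 (0.40). They became larger for Sst (6.90), Npy (4.99) and Penk (2.46). All of these genes kept their direction and their call. The calls of Osbpl3 (log2 0.14) and Gabpa (0.33) were lost. The part of RNA quality or library preparation in the relation with length was not tested.

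**Figure D3:**
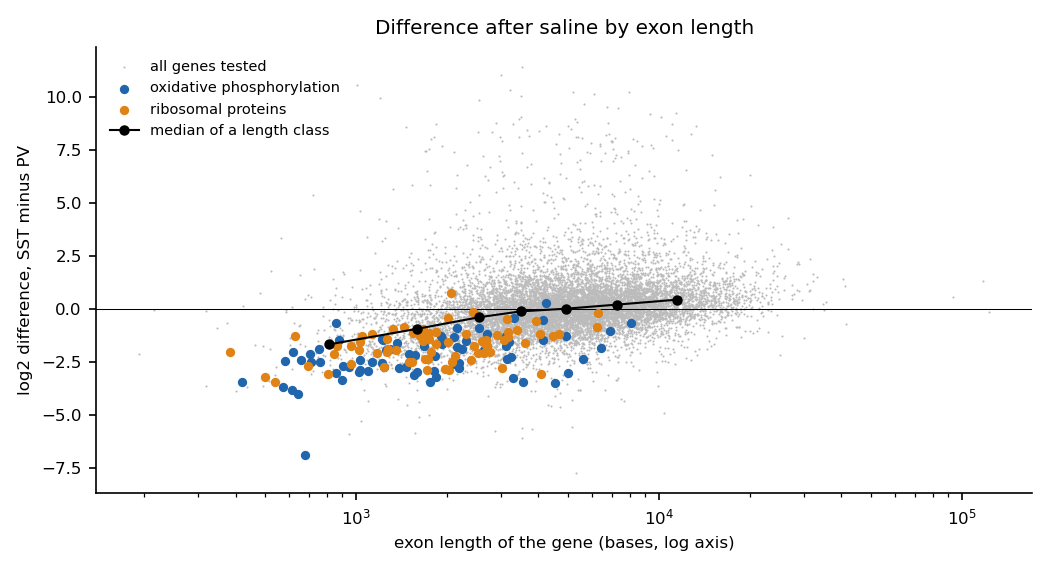
Log2 difference after saline against exon length in bases (log axis) for all genes tested in grey, oxidative phosphorylation genes in blue and ribosomal protein genes in orange, with black points for the median of each length class. The medians climb from -1.67 in the shortest class to 0.44 in the longest, and most blue and orange points lie under them.

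The ERR element is the DNA sequence that the receptors above bind. Promoters of a synaptic and a mitochondrial gene that were higher in PV are shown because each holds a copy, TCAAGGTCA on either strand and here in capitals as its reverse complement TGACCTTGA. The Syt2 window, before 1 of its 2 listed starts, lies on the plus strand at chr1:134646362-134646611, and that of Atp5g3, which encodes the c ring subunit of ATP synthase, lies on the minus strand at chr2:73911327-73911576 (RefSeq, GRCm38.p6).
Syt2: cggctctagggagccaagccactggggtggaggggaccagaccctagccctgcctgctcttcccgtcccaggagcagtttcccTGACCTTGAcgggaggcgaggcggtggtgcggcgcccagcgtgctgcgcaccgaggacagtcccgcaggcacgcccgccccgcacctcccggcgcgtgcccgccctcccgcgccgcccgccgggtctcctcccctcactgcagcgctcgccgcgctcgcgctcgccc
Atp5g3: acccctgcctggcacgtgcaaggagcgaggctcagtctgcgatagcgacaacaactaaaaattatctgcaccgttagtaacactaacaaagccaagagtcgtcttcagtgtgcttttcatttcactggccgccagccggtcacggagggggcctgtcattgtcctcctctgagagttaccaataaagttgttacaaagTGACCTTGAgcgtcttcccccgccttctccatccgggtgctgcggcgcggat
The element begins 167 bases before the Syt2 start and 52 bases before the Atp5g3 start, and Atp5g3 differed by -2.77 on the log2 scale (adjusted p = 8.02e-07, edgeR). Of the 62 oxidative phosphorylation genes with a promoter sequence, Atp5g3 was the 1 that held this exact sequence. It was present in 10 of 2468 genes higher in PV, 2 of 2271 higher in SST and 19 of 4220 not called, and in 0.422% of all genes. No test was made on these counts.

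Of 38 genes of glycolysis, the citrate cycle and energy buffering, 26 (68.4%) were higher in PV and 3 (7.9%) in SST, with a median of -0.89. Ckb, brain creatine kinase, which buffers ATP, was at 2207 and 2477 CPM in PV and at 237, 176, 202 and 187 CPM in SST (log2 -3.55 ± 0.13, adjusted p = 1.12e-08, edgeR). The lactate dehydrogenases parted: Ldhb, the form that favours lactate use, was at 1844 and 2215 CPM in PV and 313 to 391 CPM in SST (log2 -2.57 ± 0.12, adjusted p = 2.84e-08, edgeR). Ldha, the form that favours lactate production, was at 206, 209, 215 and 199 CPM in SST and 80.4 and 23.1 CPM in PV (log2 1.98, or 3.16 without PV replicate 1 and 1.38 without PV replicate 2). Pkm, the last step of glycolysis, was at 1235 and 1529 CPM in PV and 581 to 689 CPM in SST (log2 -1.14 ± 0.12, adjusted p = 1.27e-05, edgeR).

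**Figure D4:**
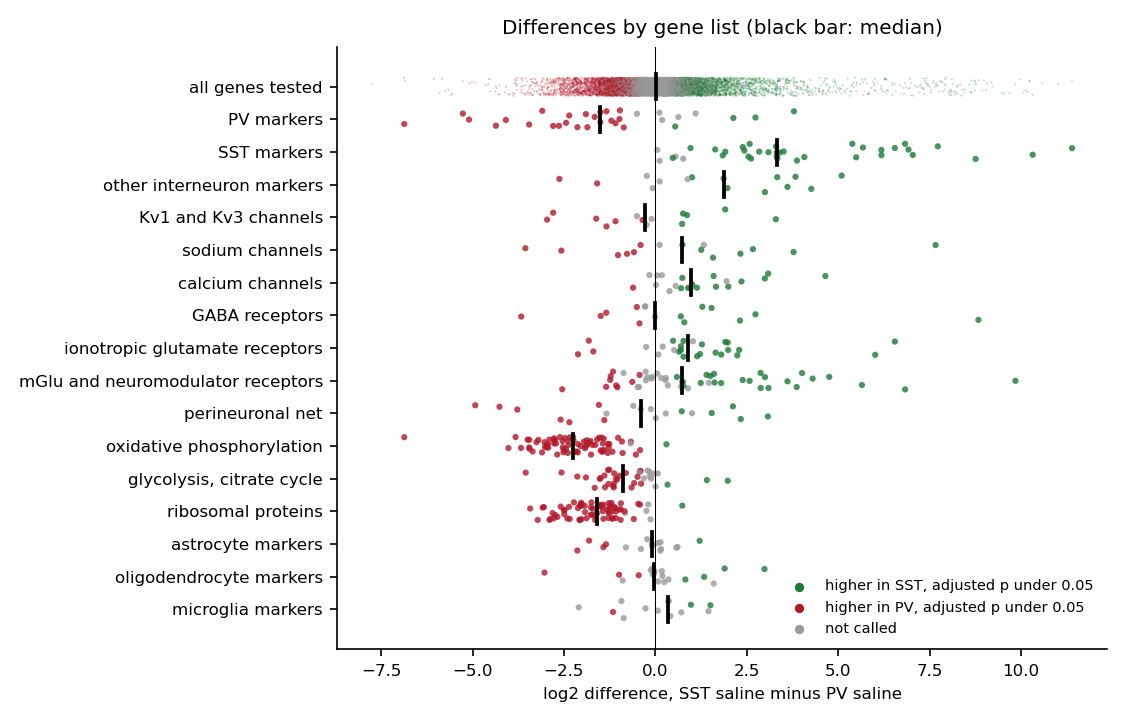
Log2 difference after saline, SST minus PV, for all genes tested and for the members of 16 gene lists, 1 point per gene, with green for higher in SST, red for higher in PV, grey for not called and a black bar at the median. The oxidative phosphorylation list has its median at -2.24 and the SST markers at 3.32, while all genes tested have theirs at 0.01.

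Markers of other cells were present in both groups. Summed levels of 16 astrocyte markers were 1211 to 1310 CPM in SST and 1355 to 1572 CPM in PV, with 1 gene called higher in SST (4 without PV replicate 1, 3 without PV replicate 2) and 4 in PV. Aldoc, S100b and Slc4a4 were the steady calls (log2 -2.13, -1.81 and -1.35). Sums of 22 oligodendrocyte markers were 395 to 470 CPM in SST and 389 to 426 CPM in PV, with 4 higher in SST and 3 in PV (1 in PV without SST replicate 2 or 3). Sums of 13 microglia markers were 52.4 to 61.3 and 50.9 to 51.7 CPM, with 2 higher in SST and 1 in PV. That SST count was 1 without any single SST replicate and 4 without PV replicate 1, and the PV count was 0 without SST replicate 2 or 3 or PV replicate 2 and 2 without PV replicate 1. Excitatory neuron markers summed to 2211 to 2845 CPM in SST and 2263 to 2425 CPM in PV, with 6 (26.1%) of 23 higher in SST and 4 (17.4%) in PV. Called in either direction were 31.2% of astrocyte, 31.8% of oligodendrocyte, 23.1% of microglia and 43.5% of excitatory markers. Each share was below the 53.1% over all genes tested. Slc17a7, the glutamate transporter that defines cortical excitatory cells, was at 42.0, 61.2, 59.1 and 58.2 CPM in SST and 66.2 and 76.8 CPM in PV (log2 -0.37 ± 0.18, adjusted p = 0.103, edgeR). The part of RNA from these cells in the differences above was not tested.

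Vascular markers summed to 396 to 474 CPM in SST and 518 to 703 CPM in PV, with 6 of 18 higher in SST and 1 in PV (2 in PV without either PV library). Of 4 tested choroid plexus and blood markers, 2 were higher in SST and 0 in PV. Kl, which encodes klotho, was at 4.90, 7.08, 3.85 and 4.47 CPM in SST and at 0 counts in PV, at least 19.2-fold higher. Prlr, the prolactin receptor, was at 3.33, 6.40, 3.11 and 5.86 CPM in SST and had 1 count in PV, a ratio of 53.9 (95% counting interval 9.60 to 2135). The choroid plexus marker Ttr, which encodes transthyretin, was at 0.121, 12.0, 0 and 8.46 CPM in SST and 0.151 and 0.428 CPM in PV, so 2 of the 4 SST libraries were high. Its difference did not pass the test (log2 4.22, adjusted p = 0.105, edgeR) but passed without SST replicate 1 (adjusted p = 0.0438, edgeR) or SST replicate 3 (adjusted p = 0.0378, edgeR), and with a term for the libraries with Xist (adjusted p = 0.00961, edgeR). Of 12 markers of neurons from thalamus, striatum, hindbrain or cerebellum, 7 were higher in SST and 1 in PV, and several of these, Calb1, Calb2, Penk and Drd2 among them, are also made by cortical interneurons. Of 15 markers of VIP, LAMP5 and related interneurons, 9 (60%) were higher in SST and 2 (13.3%) in PV. Ndnf was at 33.6, 26.1, 31.9 and 28.6 CPM in SST and 3.48 and 2.35 CPM in PV (log2 3.33 ± 0.26, adjusted p = 1.36e-06, edgeR), while Vip, which defines the VIP class, did not pass (log2 -0.23, adjusted p = 0.772, edgeR; log2 0.75 without PV replicate 1).

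Of 30 rapid activity-induced genes, 9 (30%) were higher in SST and 7 (23.3%) in PV (4 in PV without PV replicate 1 or with the exon length and GC offset), near the 26.0% and 27.1% over all genes tested. Fos was at 48.5, 16.4, 24.9 and 30.8 CPM in SST and 23.3 and 11.8 CPM in PV (log2 0.76 ± 0.46, adjusted p = 0.187, edgeR), so the groups overlapped. With the offset Fos was called higher in SST (log2 1.15, adjusted p = 0.0462, edgeR). Nr4a1, the orphan nuclear receptor the study is about, was at 44.3, 32.3, 14.7 and 30.2 CPM in SST and 33.0 and 9.62 CPM in PV and did not pass (log2 0.48 ± 0.44, adjusted p = 0.374, edgeR; log2 -0.10 without PV replicate 2). Its relative Nr4a2 was at 24.3, 18.7, 19.9 and 18.9 CPM in SST and 7.71 and 5.77 CPM in PV (log2 1.58 ± 0.25, adjusted p = 0.000248, edgeR). Egr1 (log2 0.99 ± 0.20, adjusted p = 0.00155, edgeR) and Arc (log2 0.88 ± 0.21, adjusted p = 0.00364, edgeR) were higher in SST, and Dusp1, a MAP kinase phosphatase, was at 157 and 363 CPM in PV and 43.9 to 74.6 CPM in SST (log2 -2.26, or -1.53 without PV replicate 2).

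The same difference was read in home cage libraries that the saline comparison did not use, 3 SST libraries of batch 4 and 3 PV libraries of batch 3. There batch and cell type cannot be told apart, so signs are given with no test. Over 11290 genes measured in both, 55.1% were positive in home cage and 44.9% negative. Of 2943 genes higher in SST after saline, 2462 (83.7%) were positive in home cage, with a median of 0.73, and of 3070 genes higher in PV, 2377 (77.4%) were negative, with a median of -0.51. The oxidative phosphorylation list was negative for 74 of 75 genes (median -1.51) and the ribosomal list for 72 of 72 (median -1.16), and genes of up to 1000 bases had a median of -1.23 there. Sst was at 5527, 4952 and 5362 CPM in SST and 131, 232 and 494 CPM in PV, and Cox6a2 was at 41.4, 39.7 and 25.6 CPM in SST and 551, 890 and 1362 CPM in PV. Pvalb did not separate the home cage libraries, at 449, 170 and 80.0 CPM in SST and 161, 206 and 174 CPM in PV (log2 0.37), although Syt2 did, at 57.9, 39.2 and 15.2 CPM in SST and 498, 577 and 585 CPM in PV. Among the genes with the largest saline differences, Gm12669 (log2 -0.47), which was at least 50.0-fold higher in SST after saline, and Cd37 (2.79) had the other sign in home cage.

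**Figure D5:**
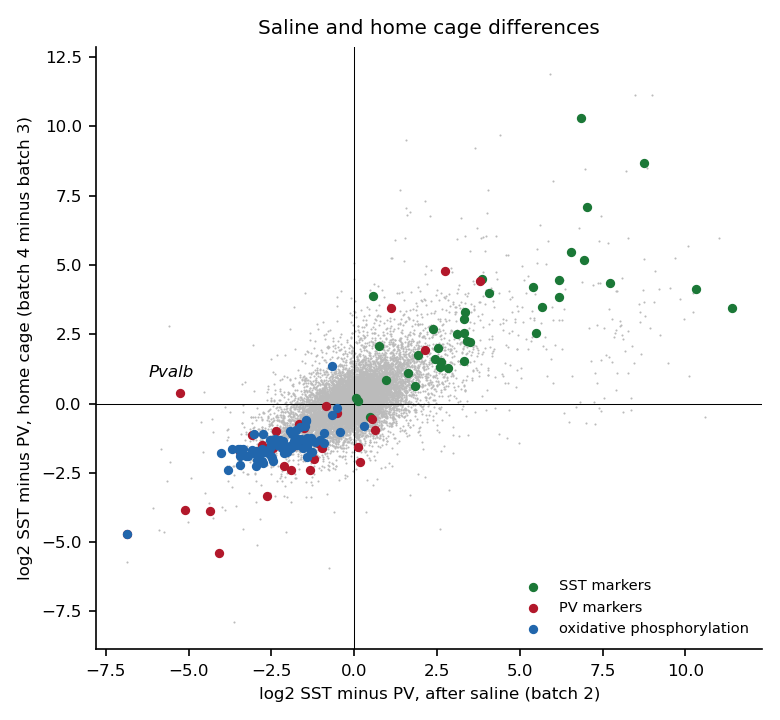
Log2 difference SST minus PV after saline (batch 2, x axis) against the same in home cage (batch 4 minus batch 3, y axis), 1 point per gene, with SST markers in green, PV markers in red and oxidative phosphorylation genes in blue. Pvalb lies at -5.26 after saline and 0.37 in home cage, and 74 of 75 blue points lie below 0 in home cage.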

How the data were processed

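Ribosome-bound polyA RNA was sequenced from SST and PV interneurons of mice given saline. For batch 2 the authors deposited raw counts by gene symbol, with 11808 genes and 9 libraries and no scaling in the values. The submitters' processing notes name, without role or order, the builds mm10 and GRCm39 and the tools DESeq2, HTSeq 0.11.0, STAR 2.5.2a and cutadapt 1.18. Whether counting kept strands apart is not given in the sources used. Positions and exon lengths were taken from GENCODE on GRCm38 (mm10) and promoters from RefSeq.

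Groups and replicate numbers come from the sample titles. No label says that libraries are separate animals, so a p-value here reflects only how far these samples vary, and that variation may be technical. No pair of replicates agreed within sampling noise (chi-square per degree of freedom 12.9 to 31.4). All 9 libraries of the table, including 3 SST libraries after PTZ, entered an edgeR 4.0.16 quasi-likelihood fit in R 4.3.3 (TMM, filterByExpr, robust), and SST saline was tested against PV saline, two-sided, with Benjamini-Hochberg adjustment over 11784 genes at 0.05. The spread therefore rests partly on the PTZ libraries, and mostly on SST libraries, since 2 of the 9 libraries are PV. The SST saline libraries correlated more closely (r = 0.983 to 0.991) than the PV pair (0.934), so standard errors and p-values may understate the PV spread. A fit without PV replicate 1 or 2 keeps only the other PV library, so its calls and p-values hold no spread among PV libraries. CPM values are TMM-scaled. On simulated data the script was tested for recovery of set changes. Floors use 3 counts over a group, and intervals (95%, exact binomial) cover counting error only.

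The comparison and the 32 gene lists were chosen with earlier results of these data known. Genes are named by this rule: Pvalb, Sst, Lhx6, Syt2, Gad1, Nr4a1, Fos and Rpl22; in each direction, up to 12 called genes of largest difference whose higher group averages 5 CPM or more and whose groups do not overlap; and up to 5 called members of each list. Further list members were added with their values known, and values of some genes that the rule names are not reported here. Alternatives were DESeq2 1.42.0, limma 3.58.1 voom, other scalings and filters, thinning to the smallest library, saline libraries only, a replicate block, leaving out each library and, chosen after seeing the data, an offset for exon length and GC share and a term for the libraries with Xist. Home cage libraries of batches 3 and 4, also deposited as counts by the authors, were used for signs only.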

Additional observations from a re-analysis of the deposited data

Results flagged for a closer look

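In 214 values over the 4 SST saline libraries, 13 had 1 library far from the others by Dixon's criterion (critical value 0.829), which chance meets in about 1 of 20 values. SST replicate 1 stood apart for 7 genes. Pvalb was highest there at 12.0 CPM (others 6.22 to 6.71), Ppargc1a at 569 CPM (others 421 to 445), Rps21 at 4.29 CPM (others 1.48 to 1.81) and Egr1 at 498 CPM (others 339 to 361). In the same library Syt6 was lowest at 50.6 CPM (others 78.2 to 83.1), Nos1 at 330 CPM (others 468 to 474) and Slc17a7 at 42.0 CPM (others 58.2 to 61.2). SST replicate 2 was lowest for Elfn1 at 772 CPM (others 990 to 1013) and Oprm1 at 27.3 CPM (others 31.9 to 32.6) and highest for Syt1 at 5027 CPM (others 4687 to 4737). SST replicate 3 held the 1 count of Cd247 (0.0740 CPM, others 0). SST replicate 4 was lowest for Ift27 at 1.17 CPM (others 2.11 to 2.18) and highest for Atp5b at 2907 CPM (others 2596 to 2630).

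For 5 named genes every SST library lay on one side of the PV libraries after saline and on the other side in home cage. The difference between the settings was not tested, and in home cage batch and cell type cannot be told apart. Gm12669 differed by 10.58 on the log2 scale after saline, a fitted value against 0 counts, and by -0.47 in home cage. Wfs1, an endoplasmic reticulum protein of upper-layer and hippocampal neurons, differed by -1.40 after saline and 1.85 in home cage. Mlc1, of astrocytes, differed by -1.42 and 0.84 (its saline call was lost without PV replicate 1, adjusted p = 0.102, edgeR). C1qc, of microglia, differed by -1.16 and 0.84 (its call was lost without SST replicate 2 or 3 or PV replicate 2, adjusted p = 0.052 to 0.159, edgeR, and with the exon length and GC offset, 0.336). Atp5b differed by 0.30 and -0.81.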

How the results depend on the processing

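The number of genes called was 6254 (53.07%) in the reported fit. It stayed within 1.5 times of that under every alternative that kept both PV libraries, from 4718 to 6628, as did the counts per direction. The 4718 came from the 8085 genes with a mean of at least 10 CPM, of which they were 58.35%. The lowest share of tested genes called was 41.98%, with the replicate block. DESeq2 called 6628 genes, limma voom 5767, saline libraries alone 5285, thinned counts 5799, the exon length and GC offset 5793 and the Xist term 6124. Leaving out 1 SST library gave 5476 (SST replicate 2) to 6011 (SST replicate 1). Counts from fits without a PV library are not set beside these, since such fits hold no spread among PV libraries. Similar totals did not mean the same genes. The length and GC offset shared 4749 calls with the reported fit and lost 1302. It reversed the log2 sign of 187 calls and put 44.4% of calls higher in SST, against 49.0%. Saline libraries alone lost 966 calls, and leaving out SST replicate 2 lost 799. Without PV replicate 1 the log2 sign of 31 called genes reversed, and without PV replicate 2 that of 39. Upper quartile scaling moved the median of all genes to 0.08 from 0.01. With the replicate block 4947 genes were called, 4909 of them shared. Deviations of same-numbered SST and PV libraries correlated at 0.077 and 0.140 over 2 pairs. The deviations of 2 PV libraries mirror each other, so these values cannot decide whether the numbers mark a pairing. Replicates 1 of both cell types had Ddx3y above Xist, and replicates 2 of both had Xist above Ddx3y. Saline libraries alone ended the calls of Kcnc2, Atp5b, Osbpl3, Pprc1, Gabpa, C1qc and Nrf1, as did the block. Among the lists, the 10 CPM minimum, which leaves out low members, lowered these counts by more than 1.5 times: other interneuron markers higher in SST from 9 to 5, neuron markers of other regions from 7 to 3, oligodendrocyte markers from 4 to 1, microglia from 2 to 1, vascular from 6 to 1, astrocyte from 1 to 0, choroid plexus from 2 to 0 and neuromodulator receptors from 23 to 14, and in PV perineuronal net genes from 7 to 4, peptides from 5 to 2, activity-induced genes from 7 to 2 and microglia markers from 1 to 0. The offset changed excitatory markers higher in SST from 6 to 3, microglia from 2 to 4 and regulators of mitochondrial genes from 2 to 1, and in PV oligodendrocyte markers from 3 to 1, vascular from 1 to 0 and calcium channels from 1 to 2. Saline libraries alone, thinning and the block each gave 1 oligodendrocyte marker higher in PV against 3, 1 axonal gene higher in SST against 2, and 0 oxidative phosphorylation genes higher in SST against 1; regulators of mitochondrial genes higher in SST were 0, 1 and 0 against 2. Microglia markers higher in SST were 1 with saline libraries alone and with the block, and those higher in PV were 2 with limma voom and 0 with thinning and the block. The block also gave 2 excitatory markers and 4 activity-induced genes higher in PV, against 4 and 7. Home cage signs matched for 4839 called genes, with 4756 to 4960 under alternatives.

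Among named genes these log2 values changed sign: Ndufs5 ran from -1.47 to 1.63 when 1 library was left out and was 0.60 with the offset (reported -0.67), Nr4a1 ran from -0.10 to 1.65 (reported 0.48) and Nrf1 from -1.88 to 0.16 (reported -1.17), while Vip ran from -0.72 to 0.75 and was 0.11 with the replicate block (reported -0.23). In each of these ranges the ends came from leaving out PV replicate 1 or 2. The cause was not tested. The 2 PV libraries and their depth limit genes near 0 counts in PV, whose fitted values moved most when either was left out.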
